A study of Mus musculus with 9 samples.

Results

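The comparison set 6 arrays of LSK cells carrying either form of the DNA methyltransferase DNMT3A against 3 arrays of LSK cells carrying the empty vector (EV), out of 9 arrays in the series. Members were chosen by their labels alone: 3 arrays of cells transduced with wild-type DNMT3A (called WT below), 3 arrays of cells transduced with DNMT3A carrying the R882H substitution, and 3 EV arrays. All 9 came from C57BL/6 mice, in which GFP-labelled transduced cells had been transplanted before LSK cells were sorted, so the controls share the vector, the transplantation and the sort. LSK cells are lineage-negative bone marrow cells with Sca-1 and Kit on their surface, a mixture of stem cells and multipotent progenitors. The labels give neither the animals' age, nor the time after transplantation, nor the species of the DNMT3A sequence in the vector. They do not say whether the 3 samples of a group came from separate mice, so p-values measure the spread between samples, which may be partly technical. The input to cDNA amplification was 3.67 ng of RNA.

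DNMT3A writes new methyl groups on cytosines in CpG dinucleotides, together with DNMT3B, while DNMT1 copies existing marks at replication with the help of UHRF1. In blood stem cells DNMT3A is known for its part in the balance of self-renewal and differentiation. R882 lies in the catalytic domain and is the residue of the enzyme most often mutated in acute myeloid leukaemia. R882H lowers the enzyme's activity and can interfere with the normal protein. For each gene the values of the 2 forms are given side by side; both are set against the same EV arrays.

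Some features of the arrays touch every result below. All EV arrays and WT replicate 1 lay on 1 slide, the other WT arrays with R882H replicates 1 and 2 on another, and R882H replicate 3 on 1 of its own, so that EV and DNMT3A arrays met on a slide only through WT replicate 1. Slide and group cannot be told apart beyond that array. The authors' deposited value table disagreed with the array labels, and only 2 of its 9 columns matched the array they are named for. For EV against DNMT3A the disagreement amounts to 1 exchange, in which the column named EV replicate 3 held the array labelled WT replicate 1 and the column named WT replicate 1 held the array labelled EV replicate 3. Among the DNMT3A columns, that named WT replicate 2 held R882H replicate 1, that named R882H replicate 3 held WT replicate 3, and 3 more held another number of their own form. Read in the deposited order of the samples, the columns held the EV, then the R882H, then the WT arrays, each by rising replicate number. No source states which labels are right. Every value of 1 form, every gap between the forms and every replicate number below thus rests on disputed labels. Results are given for the array labels, and the value table stands beside each named list and gene of the named set whose sign it turned. WT replicate 3 and EV replicate 3 stood apart from the rest, at 30.8 and 48.0 on the leading principal component (30.7% of the variance), while the other 7 arrays lay between -25.9 and 9.34.

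Signal is given as log2 of the background-subtracted intensity minus the 75th percentile of its array, so each unit is 1 doubling. The percentile is taken over all spots that were no controls. A signal of 0 falls in the middle of 5 equal bins of the tested genes, from -0.23 to 1.07. Differences are on the same log2 scale. The share of probes well above background was 57.2%, 64.8% and 56.1% on the WT arrays and 64.8%, 60.0% and 57.6% on the R882H arrays, against 57.5%, 53.4% and 57.6% on the EV arrays. The means were 60.1% ± 3.85 (SD, n = 6) with DNMT3A and 56.2% ± 2.39 (SD, n = 3) with EV, and did not differ beyond that spread in an exact two-sided permutation test (p = 0.214; the smallest p this design allows is 0.0238). No spot was saturated.

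The mouse Dnmt3a probe was examined first, since it bears on the labels. Its signal was 1.41, 1.80 and 0.45 on the WT arrays and 1.67, 1.44 and 1.08 on the R882H arrays, against 1.14, 1.44 and 0.51 on the EV arrays. The groups overlapped, and the difference of 0.28 ± 0.17 (SE) for either form minus EV did not pass (adjusted p = 0.556, limma) and was -0.18 in the value table. The probe was designed on the mouse transcript, and without the species and the extent of the transduced sequence it does not check the vector. The sort markers were present on all arrays: Kit averaged 4.25 with DNMT3A and 4.05 with EV, Ly6a, which encodes Sca-1, 1.89 and 2.10, and Cd34 5.32 and 5.14. The differences of Kit and Ly6a, 0.21 and -0.21, were -0.09 and 0.31 in the value table. Slamf1, a stem cell surface marker, was below the detection filter.

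Of 12423 genes tested, none differed between either DNMT3A form and EV at an adjusted p under 0.05 (limma with the replicate number as a block; lowest adjusted p = 0.341). At an unadjusted p under 0.05 there were 1411 genes, 11.4% of those tested, of which 713 (5.74%) were higher with DNMT3A and 698 (5.62%) lower. All 6 DNMT3A arrays lay above all 3 EV arrays for 257 genes (2.07%) and below them for 151 (1.22%). Counted anew under other settings, genes at an unadjusted p under 0.05 were 835 without the replicate block, 660 with slide as the block, 547 in the value table under its own column names and 873 without EV replicate 1, each with 0 genes past adjustment. How many were shared was not counted. Each form alone against the shared EV arrays gave the same absence of adjusted calls: 1054 genes for WT and 1698 for R882H had an unadjusted p under 0.05. The values below therefore describe these arrays, and no named gene passed the test.

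**Figure D1:**
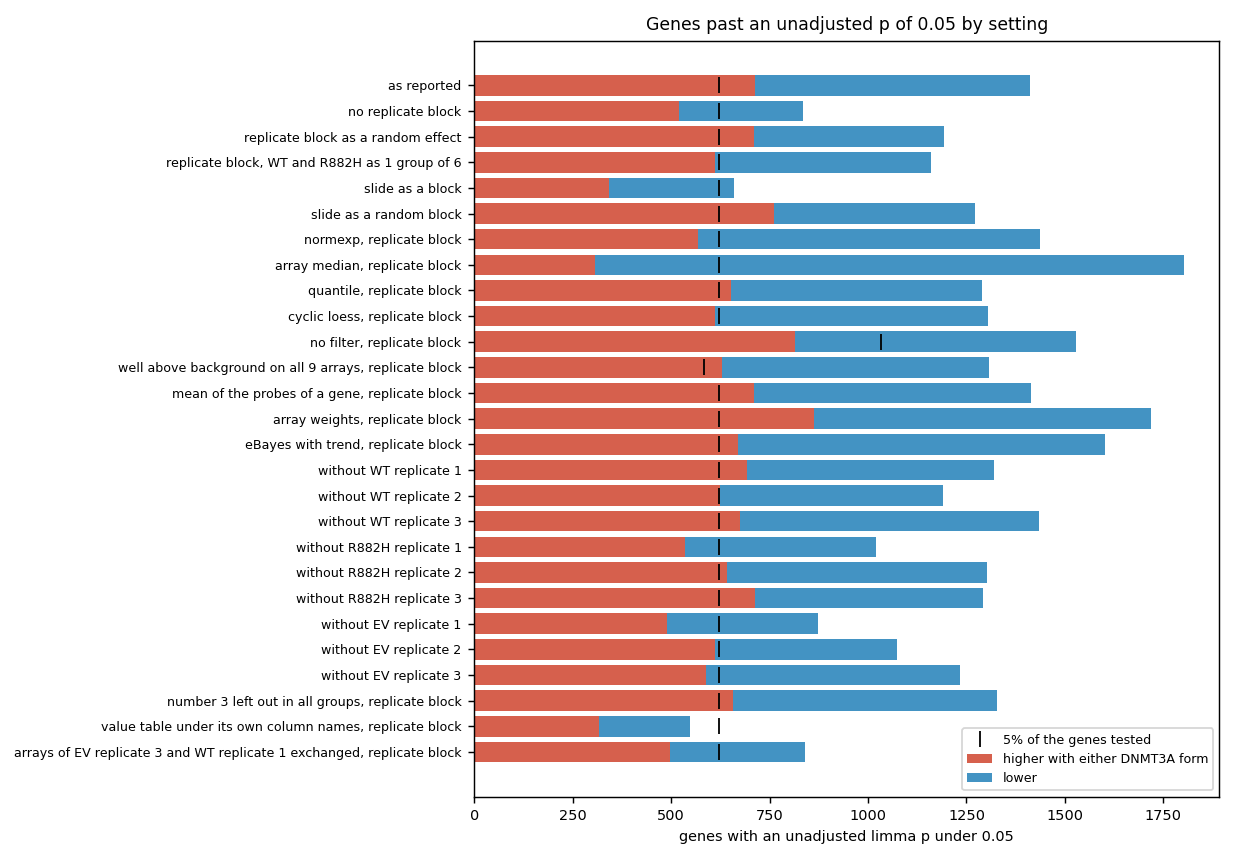
Number of genes (x axis) with an unadjusted limma p under 0.05 under each setting (y axis), split into genes higher and lower with either DNMT3A form, with a tick at 5% of the genes tested. The reported setting gave 713 higher and 698 lower, and the value table under its own column names gave the smallest total, 547.

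The genes described first are the 12 in each direction with the smallest p among those whose 6 DNMT3A arrays did not overlap the 3 EV arrays and whose 2 forms lay on the same side. Their unadjusted p-values ran from 5.03e-05 to 0.00181 and their adjusted p-values from 0.341 to 0.379 (limma). That the groups separate follows from how they were picked.

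Among the higher genes, Rabggta encodes the alpha subunit of the enzyme that attaches geranylgeranyl groups to Rab GTPases. Its signal was 0.01, -0.43 and -1.05 on the WT arrays and -0.62, -0.55 and -0.76 on the R882H arrays, against -1.77, -2.16 and -2.23 on the EV arrays. Every DNMT3A array stood above every EV array, with a difference of 1.49 ± 0.17 (SE), a 2.81-fold level, and 1.57 for WT beside 1.41 for R882H. Under the value table's column names the difference was 0.36. Ier5, an immediate early gene of the growth factor and heat shock responses, was dim, at -3.13, -2.92 and -2.22 with WT and -2.31, -1.83 and -2.04 with R882H, against -4.45, -3.93 and -3.33 with EV. Only 1 of the 3 EV arrays measured it above background, and its difference was 1.50 ± 0.18 (SE). Both of its probes ran the same way, and the difference was 1.39 in the value table and 0.37 under normexp.

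Cdkn2c encodes p18INK4C, an inhibitor of the cyclin D kinases that restrains the division of blood stem cells in mice. It was well above background on all 9 arrays, at 2.31, 2.94 and 2.28 with WT and 2.43, 2.47 and 1.98 with R882H, against 1.30, 1.78 and 1.03 with EV. The level was 2.04-fold that of EV, a difference of 1.03 ± 0.14 (SE), and 1.14 for WT beside 0.92 for R882H. It kept 0.86 with slide as the block and 0.96 under the normexp background model, but 0.38 in the value table. Gp1ba, the platelet receptor for von Willebrand factor, read -1.21, -1.34 and -1.42 with WT and -1.27, -0.13 and -1.89 with R882H, against -2.66, -2.55 and -3.63 with EV. R882H replicate 2 was the highest array and EV replicate 3 the lowest, and the difference was 1.74 ± 0.27 (SE), a 3.34-fold level, or 0.52 in the value table.

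Dlk1, an imprinted gene for a Notch-related surface protein, gave nearly the same value for both forms, 1.23 with WT and 1.27 with R882H. Its arrays read -2.51, -2.46 and -2.65 with WT and -2.20, -2.57 and -2.74 with R882H, against -3.17, -4.41 and -3.74 with EV. The EV arrays were spread more widely than the DNMT3A arrays, and only 1 of them measured the probe above background.

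Lenep, named for lens epithelial protein, was higher by 1.80 with WT and 0.89 with R882H, and Prl3b1, a placental lactogen gene, by 0.55 with WT and 1.06 with R882H. The other higher genes were Adamdec1, an ADAM-family protease, at 1.39, Clec16a, which acts in mitophagy, at 1.12, Tctex1d4, a dynein light chain relative, at 1.41, and the olfactory receptor gene Olfr470. Olfr470 was above background on all 6 DNMT3A arrays and on no EV array, which bounds it at 1.63-fold or more. Of the 12 higher genes, 7 were not well above background on all EV arrays. Under normexp, which shrinks dim signals, the 12 differences ran from 0.15 for Olfr470 to 0.96 for Cdkn2c.

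**Figure D2:**
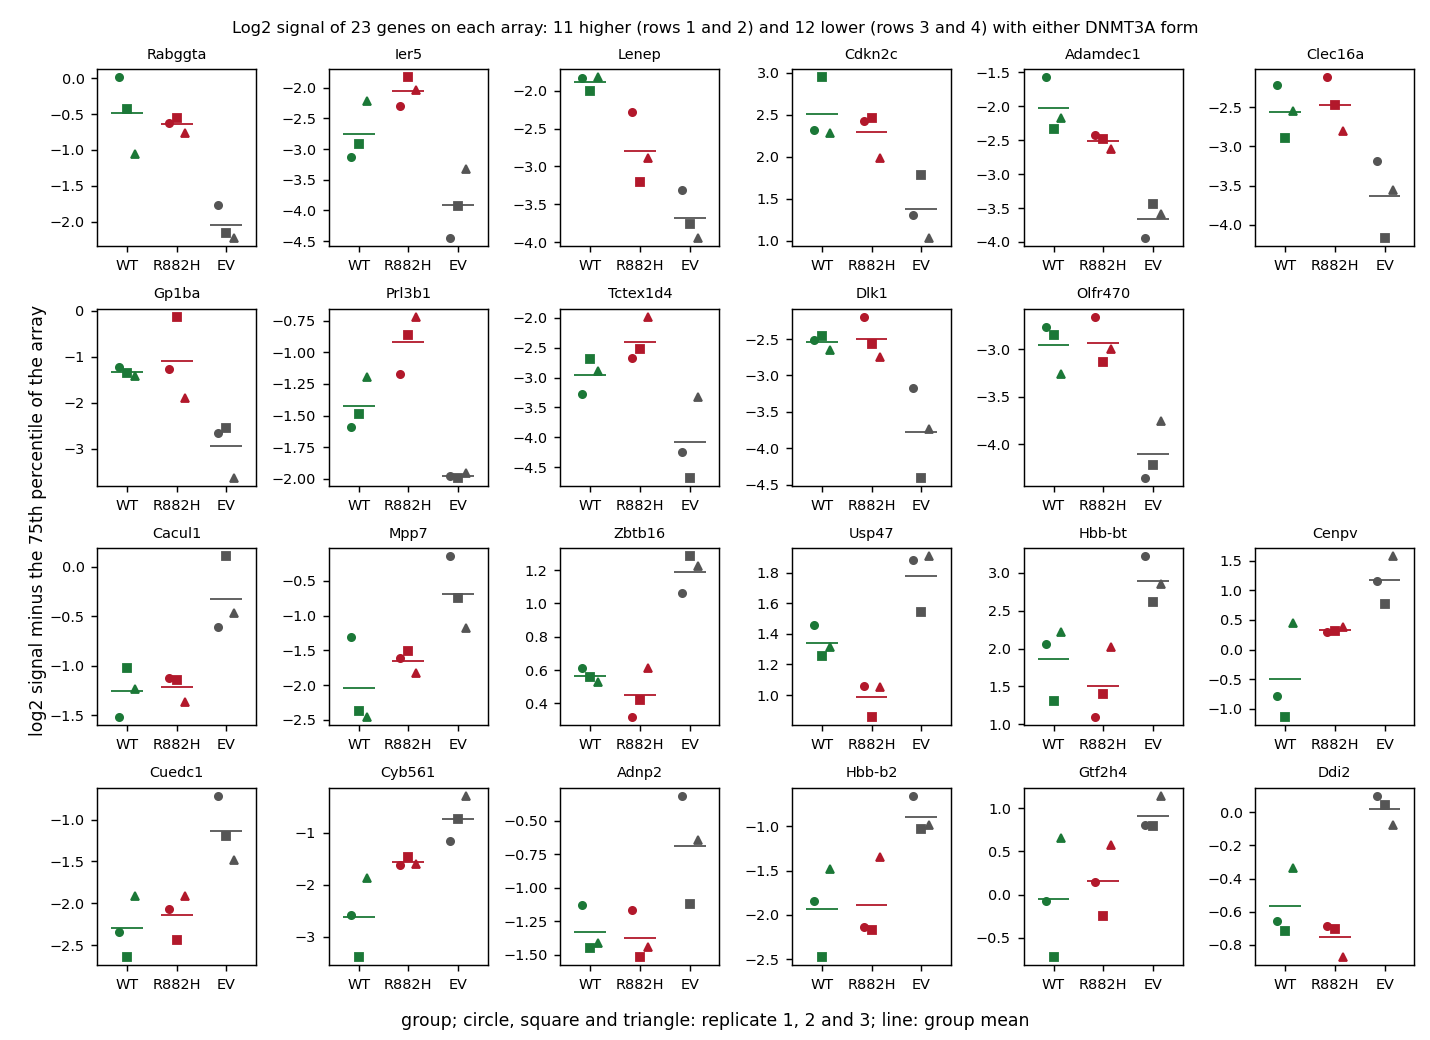
Log2 signal minus the 75th percentile of the array (y axis) for 23 of the 24 genes on each WT, R882H and EV array (x axis), with lines at the group means and a symbol for each replicate number. In each panel the 6 DNMT3A arrays lie on one side of the 3 EV arrays, which is how the genes were picked, and the gap is narrow for Mpp7 and wider for Rabggta.

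Among the lower genes, Zbtb16 encodes PLZF, a transcription factor of stem cell quiescence and innate-like lymphocytes. Its signal was 0.61, 0.56 and 0.53 on the WT arrays and 0.32, 0.42 and 0.61 on the R882H arrays, against 1.06, 1.28 and 1.22 on the EV arrays. It stood lower, with a difference of -0.68 ± 0.12 (SE), with a 95% interval of -0.45 to 0.22 for R882H minus WT. Usp47, a deubiquitinase, was lower, with a difference of -0.61. It read 1.46, 1.25 and 1.31 with WT and 1.06, 0.85 and 1.06 with R882H, against 1.88, 1.54 and 1.91 with EV. Both genes were well above background on every array and kept their sign in all 26 alternatives, with differences of -0.38 for Zbtb16 and -0.39 for Usp47 in the value table.

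Cacul1, whose product associates with cullin and CDK2, was lower, with a difference of -0.91 ± 0.15 (SE). It read -1.52, -1.03 and -1.23 with WT and -1.13, -1.15 and -1.37 with R882H, against -0.61, 0.11 and -0.47 with EV. Its 2 forms were close, with a 95% interval of -0.38 to 0.47 for R882H minus WT. Ddi2, a protease that processes the proteasome regulator NRF1, was lower, with a difference of -0.68, and Adnp2, a zinc finger homeobox gene, by -0.66. Gtf2h4, a subunit of the repair and transcription factor TFIIH, was lower, with a difference of -0.86, and Cuedc1, which has a ubiquitin-binding CUE domain, by -1.08.

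The beta-globin genes Hbb-bt and Hbb-b2 were both among the 12. Hbb-bt had 2.06, 1.30 and 2.22 with WT and 1.09, 1.40 and 2.02 with R882H, against 3.22, 2.62 and 2.85 with EV, a difference of -1.21 ± 0.23 (SE). Hbb-b2 differed by -1.02, but globin copies are near identical in sequence and may share signal between probes. The alpha-globin gene Hba-a1 differed by -0.56 ± 0.57 (SE) and rested on EV replicate 1, at 2.03, against -0.70 and -0.10 on the other EV arrays. The transcription factor gene Gata1, a master regulator of red cells and megakaryocytes, was at 2.53, 3.01 and 2.25 with WT and 3.43, 3.23 and 2.87 with R882H, against 2.78, 2.10 and 1.18 with EV, higher by 0.87 ± 0.23 (SE), with overlap between the groups. Over the erythroid list 9 of 13 measured members were higher, with a median of 0.31 that was -0.07 for WT and 0.81 for R882H, and -0.01 without EV replicate 2. Hbb-b1 was below the filter. The part of erythroid cells in the sort was not tested.

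In 3 lower genes, Usp47 among them, the forms differed in size at an unadjusted p under 0.05. Cyb561, an electron-carrying membrane cytochrome, was lower, with a difference of -1.89 with WT and -0.83 with R882H, and for Cenpv, a centromere protein, R882H stood 0.83 above WT. Mpp7, a scaffold of cell junctions, was lower, with a difference of -1.15 on the probe reported, while 1 of its 2 probes ran the other way, and it was at -0.18 with slide as the block. Over the 24 genes, R882H and WT differed at an unadjusted p under 0.05 in 6 and at an adjusted p under 0.05 in 0, against 11.4% of all genes at an unadjusted p under 0.05. The median size of R882H minus WT was 0.215, and the median 95% interval reached 0.489 to each side. Under the value table's column names the 24 differences ranged from 0.0647 to 0.978 times the reported ones. Each had to shrink there, since that table exchanges EV replicate 3 and WT replicate 1 and these genes were picked for groups without overlap.

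For both directions promoters are shown, since methylation acts on their CpG dinucleotides. They were not chosen by their number of CpG. Each is the 250 bases before the RefSeq transcription start on GRCm38, 5′ to 3′ on the gene's strand, with every CpG in capitals. Those of Ier5 (chr1:155099637-155099886, minus strand) and Lenep (chr3:89402651-89402900, minus strand) belong to genes that were higher with DNMT3A, and those of Cacul1 (chr19:60581024-60581273, minus strand) and Usp47 (chr7:112023256-112023505, plus strand) to genes that were lower.
Ier5: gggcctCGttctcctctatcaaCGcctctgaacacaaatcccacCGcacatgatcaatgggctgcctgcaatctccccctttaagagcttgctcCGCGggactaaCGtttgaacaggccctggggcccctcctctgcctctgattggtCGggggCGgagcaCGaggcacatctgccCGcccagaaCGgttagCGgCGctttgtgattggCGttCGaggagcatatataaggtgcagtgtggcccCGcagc
Lenep: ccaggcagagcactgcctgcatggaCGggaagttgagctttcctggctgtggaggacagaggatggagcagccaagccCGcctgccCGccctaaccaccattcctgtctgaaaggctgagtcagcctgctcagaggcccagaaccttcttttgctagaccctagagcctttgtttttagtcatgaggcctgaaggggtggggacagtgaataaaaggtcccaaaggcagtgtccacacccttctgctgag
Cacul1: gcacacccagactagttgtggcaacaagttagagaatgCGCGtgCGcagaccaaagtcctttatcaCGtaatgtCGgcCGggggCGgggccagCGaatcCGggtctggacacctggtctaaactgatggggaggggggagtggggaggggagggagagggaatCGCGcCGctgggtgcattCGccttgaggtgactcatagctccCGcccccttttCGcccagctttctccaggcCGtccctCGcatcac
Usp47: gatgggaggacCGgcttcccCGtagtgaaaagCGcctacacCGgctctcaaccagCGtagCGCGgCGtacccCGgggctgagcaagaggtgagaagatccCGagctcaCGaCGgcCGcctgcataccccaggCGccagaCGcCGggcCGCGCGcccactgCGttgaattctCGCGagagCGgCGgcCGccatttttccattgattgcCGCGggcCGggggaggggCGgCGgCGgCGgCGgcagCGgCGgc

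These windows hold 16 CpG in Ier5, 3 in Lenep, 17 in Cacul1 and 35 in Usp47, against a median of 6 over 32851 such windows. Ier5 and Cacul1, which differed from EV in opposite directions, thus had nearly equal numbers. No methylation was measured here, and the files say nothing of whether these cytosines were modified.

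Over all genes with a window, 9974 or 80.3% of those tested, the difference from EV was related to promoter CpG content as a description. Genes were split into 3 equal classes by CpG observed over expected, the number of CpG relative to the number expected from C and G content. For this split a window also held bases after the start, and a gene with several windows took their mean. The 3326 genes of the low class had a median difference of 0.07, the 3323 of the middle class -0.04 and the 3325 of the high class -0.06. The low class held 9.80% of genes higher and 4.99% lower at an unadjusted p under 0.05, and the high class 3.25% higher and 5.86% lower. The 2 forms, which share the EV arrays, gave medians of 0.06 with WT and 0.10 with R882H in the low class, and -0.02 and -0.10 in the high class.

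Promoter class moved with brightness: the median signal was -0.41 in the low class, 0.59 in the middle and 1.08 in the high. Within the dimmest genes the medians were 0.14, 0.02 and -0.01 for low, middle and high CpG content, and within the brightest 0.00, -0.08 and -0.08. The class medians on the 1 slide that held both groups, WT replicate 1 minus the mean of EV, were 0.00, -0.01 and -0.01, so no order was seen there. Over the other settings the low class stayed above the high class by 0.0722 (slide as the block) to 0.154.

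**Figure D3:**
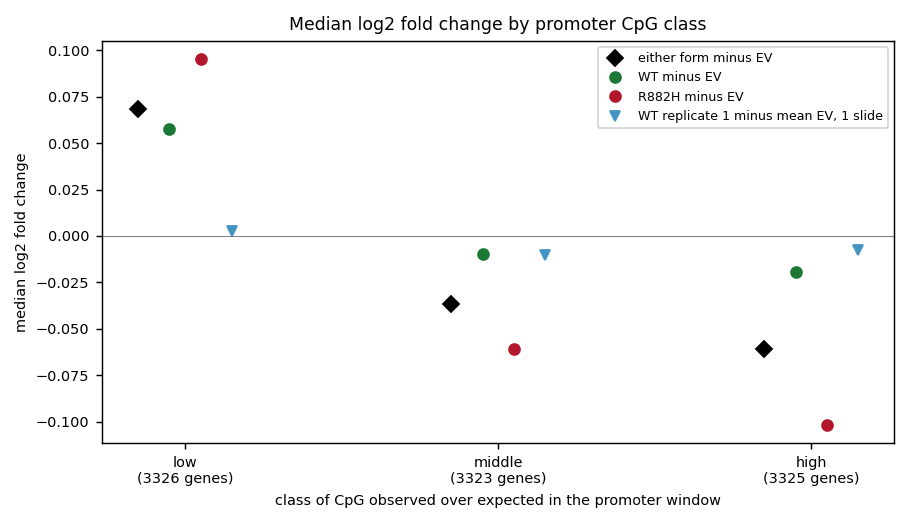
Median log2 fold change (y axis) of genes in 3 classes of promoter CpG content (x axis) for either form, for WT and for R882H against EV, and for WT replicate 1 against the mean EV array on the slide they share. The low class sits at 0.07 and the high class at -0.06 for either form, while the values from the shared slide lie near 0 in every class.

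Transcripts measured with 1 side only were few. Of the genes tested, 11665 were well above background on all 9 arrays, 14 on all 6 DNMT3A arrays and no EV array, and 1 on all 3 EV arrays and no DNMT3A array. Of the 14, Mtss2 had the largest bound, at least 2.53-fold, with -3.22, -3.32 and -1.50 on the WT arrays and -1.79, -1.67 and -2.55 on the R882H arrays, against -3.84, -4.67 and -5.78 on the EV arrays. Its adjusted p was 0.393 (limma). The phosphatase gene Ppm1n was bounded at 1.82-fold or more, the potassium channel subunit Lrrc38 at 1.73-fold and Pir, for the iron-binding protein pirin, at 1.65-fold, all under the array labels. In the value table the log2 differences were 1.13 for Mtss2, 0.52 for Ppm1n, 0.18 for Lrrc38 and 0.48 for Pir. The 1 gene measured with EV alone was Cys1, for the ciliary protein cystin, at least 1.50-fold lower with DNMT3A, at -5.97, -4.34 and -4.49 with WT and -3.95, -3.76 and -4.51 with R882H, against -3.27, -3.14 and -3.38 with EV. In the value table Cys1 differed by 0.05.

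Of 27 gene lists, those for energy and growth had most of their members lower. Of 30 subunits of oxidative phosphorylation, the chain that makes mitochondrial ATP, 27 were lower and 3 higher with DNMT3A, against 47.9% of all genes higher. The median was -0.24, set against -0.01 for all genes, with -0.18 for WT and -0.31 for R882H. None passed adjustment, and 9 were lower and 0 higher at an unadjusted p under 0.05, against 5.62% and 5.74% of all genes. Within replicate numbers 1, 2 and 3 the medians were -0.33, -0.22 and -0.15, and on the shared slide -0.19. No setting turned the sign, over a range of -0.35 to -0.07, although the value table gave only -0.08.

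Uqcrc1, a core subunit of complex III, read 3.10, 2.97 and 3.50 with WT and 2.97, 2.67 and 3.21 with R882H, against 3.39, 3.27 and 3.55 with EV. The groups overlapped, replicate 3 was the highest array of each, and the difference was -0.34 ± 0.12 (SE, adjusted p = 0.412, limma). Uqcrq, another complex III subunit, differed by -0.38. Without number 3 in any group the differences were -0.41 for Uqcrc1 and -0.44 for Uqcrq.

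Genes of ribosome biogenesis and other Myc targets followed the same layout, with 30 of 32 measured members lower and a median of -0.23. At an unadjusted p under 0.05, 9 were lower, against 5.62% of all genes. Nop16, a nucleolar assembly factor, read 0.41, -0.12 and 1.21 with WT and 0.32, 0.12 and 0.72 with R882H, against 1.23, 0.72 and 1.25 with EV, a difference of -0.62 ± 0.17 (SE). Srm, spermidine synthase, differed by -0.42 and Rrp12, a ribosome export factor, by -0.48. Myc itself differed by 0.02, with a sign that turned with the scaling, and by -0.26 in the value table. No setting turned the list's sign, with medians from -0.34 to -0.09.

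Glycolysis and hypoxia genes had 18 of 24 lower, with a median of -0.17. Pkm, pyruvate kinase, read 5.15, 4.81 and 5.41 with WT and 4.66, 4.61 and 5.29 with R882H, against 5.36, 5.17 and 5.80 with EV, a difference of -0.45 ± 0.12 (SE). Pfkl, a phosphofructokinase, differed by -0.47, with -0.47 for WT and -0.46 for R882H, and Pgam1, a phosphoglycerate mutase, by -0.42. Ldha, which makes lactate, differed by -0.07. The list's median was 0.00 in the value table.

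Brightness moved with these lists, whose median members had signals of 4.30, 2.97 and 2.92 for oxidative phosphorylation, ribosome biogenesis and glycolysis. Across 5 equal bins of signal over all genes, the median difference went from 0.08 in the dimmest through 0.04, -0.01 and -0.05 to -0.07 in the brightest, where 65.3% of genes were lower. The medians of these lists lay below that of the brightest bin, and the part of brightness in them was not tested.

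**Figure D4:**
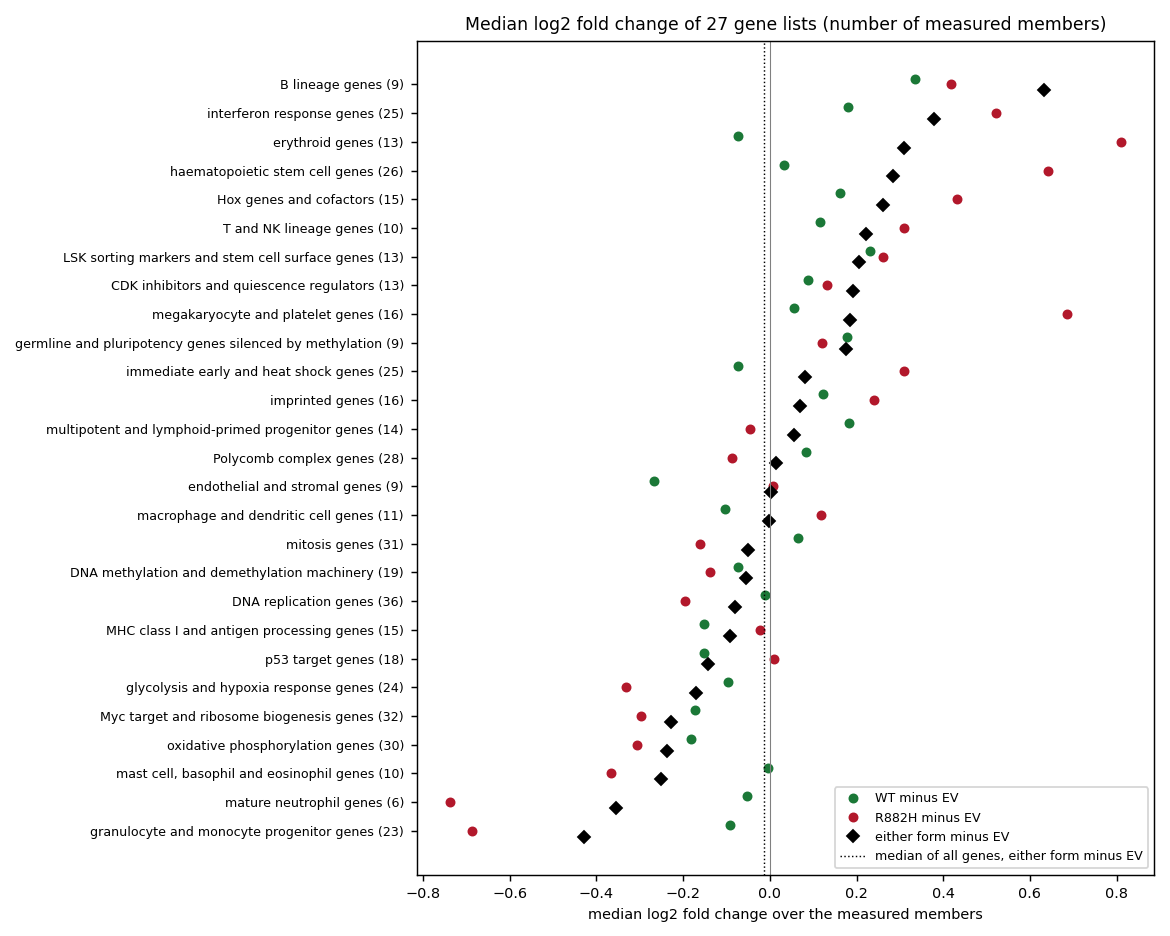
Median log2 fold change (x axis) over the measured members of 27 gene lists (y axis, with the number of members) for WT, for R882H and for either form against EV, with a dotted line at the median of all genes. Granulocyte and monocyte progenitor genes lie at -0.43 and B lineage genes at 0.63, or 0.34 over the 6 members measured on all arrays, and oxidative phosphorylation sits at -0.24 with both forms on the same side.

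For some lists of blood cell types the medians of the 2 forms lay further apart, a gap that was not tested. Genes of granulocyte and monocyte progenitors had 20 of 23 measured members lower. At an unadjusted p under 0.05, 12 were lower, against 5.62% of all genes. The list's median of -0.43 was made of -0.09 for WT and -0.69 for R882H. Spi1, the myeloid master regulator PU.1, read 1.57, 1.49 and 1.97 with WT and 1.09, 0.94 and 1.61 with R882H, against 2.00, 1.64 and 2.23 with EV, lower, with a difference of -0.51 ± 0.12 (SE). Prtn3, a protease of the early granules, differed by -1.01, and by 0.16 in the value table, where Spi1 differed by -0.19. EV replicate 3 carried the highest mean deviation of this list, 1.01, and WT replicate 3 the next, 0.80, while the other 7 arrays lay between -0.73 and 0.18. The list's median was -0.33 without EV replicate 3 and 0.08 in the value table.

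Mature neutrophil genes were lower, with a median of -0.35 over the 6 of 15 measured, and -0.10 without EV replicate 3 and 0.16 in the value table. S100a9, an abundant neutrophil protein, differed by -2.19, or 1.20 in the value table, and was at 3.66 on EV replicate 3, against -3.13 to 0.76 on the other 8 arrays. Of the defining neutrophil markers Ltf, Ngp, S100a8 and Ly6g were below the detection filter and Camp was measured. The part of mature cells in these values was not tested, and in sorted bulk samples fewer cells of a type and less RNA per cell cannot be told apart.

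Stem cell genes stood on the other side, with 19 of 26 higher and a median of 0.28, made of 0.03 for WT and 0.64 for R882H. Socs2, a cytokine signalling inhibitor expressed in stem cells, read -0.46, -0.96 and -2.22 with WT and 0.28, -0.54 and -1.60 with R882H, against -1.55, -1.18 and -3.21 with EV. Number 3 was the lowest array of each group, and within numbers the DNMT3A arrays were higher each time, by 1.06 ± 0.21 (SE, adjusted p = 0.379, limma). In the value table the difference was -0.32. The list's median was -0.12 there.

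Megakaryocyte and platelet genes had 12 of 16 higher, with a median of 0.19, or 0.06 for WT and 0.68 for R882H. At an unadjusted p under 0.05, 4 were higher and none lower, against 5.74% and 5.62% of all genes. Itgb3, the platelet integrin beta subunit, read 2.28, 2.03 and 2.14 with WT and 2.59, 2.57 and 2.37 with R882H, against 1.38, 1.92 and 1.60 with EV. The groups did not overlap, with a difference of 0.69 ± 0.16 (SE), 0.89 with slide as the block and 0.35 in the value table. The list stayed above 0 in every setting, from 0.04 to 0.50. Gp5, Gp6, Ppbp and Tubb1, products of late megakaryocytes and platelets, were below the detection filter.

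Of the B lineage genes 9 of 17 were measured and 8 of them were higher, with a median of 0.63. Of these, 6 were well above background on all 9 arrays and had a median of 0.34, and Rag1, Vpreb2 and Blnk passed the filter through the DNMT3A arrays. Rag1, the recombinase of antigen receptor genes, read -2.33, -3.95 and -2.72 with WT and -0.93, -0.22 and -1.26 with R882H, against -3.50, -2.59 and -6.07 with EV. EV replicate 3 was not above background, and the fitted difference of 2.15 was 1.18 without number 3, 0.80 under normexp and 0.27 in the value table. Cd79a and Ms4a1, which mark committed B cells, were below the filter. Thy1, a T cell and progenitor surface protein, was lower, with a difference of -0.74 ± 0.19 (SE), at 1.36, 1.21 and 1.24 with WT and 1.37, 1.04 and 1.06 with R882H, against 1.56, 2.01 and 2.29 with EV. Its own list ran the other way, with 8 of 10 measured T and NK genes higher, against 47.9% of all genes, and a median of 0.22. At an unadjusted p under 0.05 the list was evenly split, with 2 higher and 2 lower, against 5.74% and 5.62% of all genes.

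Interferon response genes had 21 of 25 higher, with a median of 0.38. At an unadjusted p under 0.05, 5 were higher and 1 lower, against 5.74% and 5.62% of all genes. The medians within numbers 1, 2 and 3 were 0.33, -0.17 and 0.72, so number 2 ran the other way. EV replicate 3 had a mean deviation of -0.73, against -0.21 to 0.28 on the other arrays, and the median was 0.20 without it and -0.20 in the value table. Antigen presentation genes of MHC class I, many of them interferon targets, had 14 of 15 lower, with a median of -0.09 that was 0.07 with slide as the block. At an unadjusted p under 0.05, 0 were higher and 0 lower. The list was bright, with a median signal of 3.52. In the brightest of 5 bins of signal, 65.3% of all genes were lower, with a median of -0.07. The part of brightness was not tested.

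**Figure D5:**
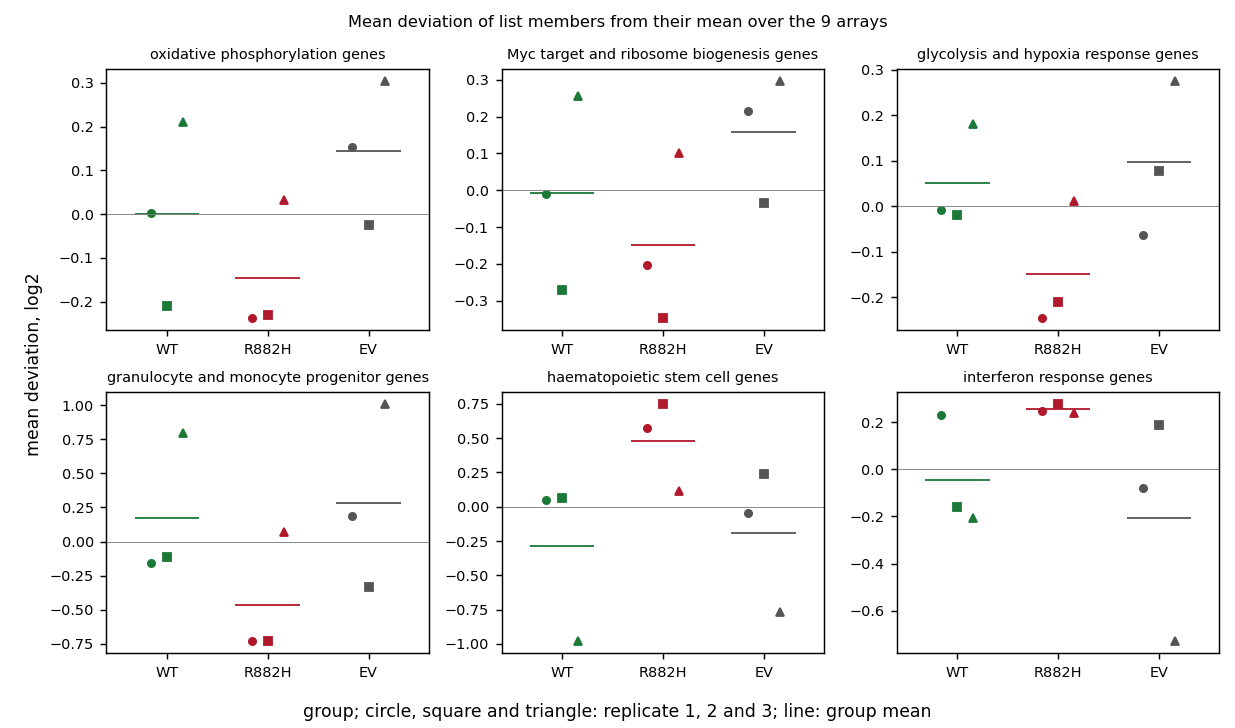
Mean over list members of each gene's deviation from its own mean over the 9 arrays (y axis, log2) on each WT, R882H and EV array (x axis), for 6 gene lists. EV replicate 3 (triangle) is the highest EV array for granulocyte and monocyte progenitor genes, at 1.01, and the lowest for stem cell and interferon genes, and WT replicate 3 is high for the first of these lists and low for stem cell genes.

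Genes that methylation is known to silence were looked at as a group. Imprinted genes had a median of 0.07, with 9 of 16 measured members higher, and a median below 0 when arrays were centred on their median and of -0.08 in the value table. The median was 0.03 over the 12 members well above background on all 9 arrays, which leave out Dlk1. Besides Dlk1, Magel2, a paternally expressed ubiquitin ligase cofactor, read -1.19, -0.97 and -0.998 with WT and -0.61, -0.78 and -0.99 with R882H, against -1.72, -1.51 and -1.50 with EV, higher by 0.65 ± 0.14 (SE). Its groups did not overlap, and it was 0.49 in the value table. Phlda2, a maternally expressed growth restrainer, was lower, with a difference of -0.76, and 0.04 with slide as the block. H19, Igf2, Meg3 and Peg3 were below the filter.

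Germline and pluripotency genes were mostly unmeasured, with 9 of 24 past the filter and a median of 0.18. Over the 8 of them well above background on all 9 arrays the median was 0.12. Among them Tdrd7, a tudor protein of germ granules, was higher by 0.72 ± 0.21 (SE), without overlap between the groups. Pou5f1, Dazl and Zfp42 were below the filter. Of 15 Hox genes and cofactors 11 were higher, 5 at an unadjusted p under 0.05, against 5.74% of all genes. The list's median of 0.26 was -0.03 without EV replicate 3 and -0.12 in the value table. Hoxb9 read -1.38, -1.36 and -1.55 with WT and -1.36, -1.30 and -1.50 with R882H, against -1.76, -1.97 and -2.13 with EV. Its difference of 0.55 ± 0.12 (SE) was 0.16 in the value table. Hoxb4, which expands blood stem cells when overexpressed, was higher by 0.47 and Meis1, a Hox cofactor, by 0.66, and in the value table they differed by 0.36 and -0.12.

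The methylation machinery had 8 members higher and 11 lower of 19, with a median of -0.05 that lay above 0 under cyclic loess and was 0.07 with slide as the block. Dnmt1 read 1.26, 1.06 and 1.14 with WT and 1.27, 1.28 and 1.56 with R882H, against 1.50, 1.44 and 1.58 with EV, a difference of -0.25 ± 0.12 (SE, adjusted p = 0.475, limma). Dnmt3b differed by 0.23, and 2 of its 3 probes ran the other way. Uhrf1 differed by 0.18, with a sign that turned when the probes of the gene were averaged. In the value table Dnmt3b differed by -0.34 and Uhrf1 by -0.08. Polycomb genes had a median of 0.01 that lay below 0 with array-median centring and was -0.12 in the value table, with Pcgf6, a subunit of a variant PRC1 complex, lower, with a difference of -0.44 and Ezh2, the H3K27 methyltransferase, higher by 0.31. Ezh2 differed by -0.13 in the value table.

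The division machinery lay near the median of all genes. DNA replication genes had 27 of 36 lower, with a median of -0.08, and mitosis genes 20 of 31 lower, with a median of -0.05 that was 0.04 without EV replicate 1. CDK inhibitors and quiescence regulators had a median of 0.19 over 13 genes, led by Cdkn2c, and of -0.08 in the value table. Cdkn1a, for p21, differed by -0.40, or 0.11 in the value table, and Cdkn2a and Cdkn1c were below the filter. Immediate early and heat shock genes had 18 of 25 higher with a median of 0.08, below 0 with array-median centring and -0.05 in the value table. Beside Ier5, Dusp2, a MAP kinase phosphatase, was higher by 0.56 and Egr1, a transcription factor of stem cell quiescence in mice, by 0.82. EV replicate 3 had the lowest Egr1 signal, 4.08, and the difference was 0.42 without number 3 and -0.19 in the value table, where Dusp2 differed by 0.02.

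Other lists held genes of progenitors and of cells a sort could contain. The median was 0.06 for multipotent and lymphoid-primed progenitor genes, 0.22 for T and NK genes, -0.25 for mast cell, basophil and eosinophil genes, and 0.00 for both macrophage and dendritic cell genes and endothelial and stromal genes, and array-median centring turned the sign of the progenitor and the stromal list. These 2 lists were at -0.36 and -0.31 in the value table, and macrophage and dendritic cell genes at -0.16. The progenitor list was at -0.06 over the 11 of 14 members well above background on all 9 arrays, and at -0.04 without EV replicate 3. Rag1 and Blnk, which passed the filter through the DNMT3A arrays, also belong to it. The mast cell list was at 0.40 without EV replicate 1 and also above 0 without R882H replicate 1. Macrophage markers Adgre1 and Cd5l, and the stromal and endothelial markers Col1a1 and Cdh5, were below the filter. LSK surface genes had 10 of 13 higher with a median of 0.21, and p53 targets 12 of 18 lower with a median of -0.14. In the value table their medians were -0.09 and 0.06.

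Probes without a gene name, 12917 of those tested, gave 0 calls after adjustment with the replicate block, with 1032 (7.99%) higher and 496 (3.84%) lower at an unadjusted p under 0.05. These counts were 440 higher and 374 lower with slide as the block, and 904 and 643 without EV replicate 3. Without the replicate block 4 passed, each at an adjusted p of 0.0427 (limma). They are named by the mm9 interval they were designed on. The probe for chr17:3198868-3394643 was above background on all 6 DNMT3A arrays and no EV array, at least 2.49-fold higher, with -1.82, -1.76 and -1.98 for WT and -2.76, -2.89 and -2.98 for R882H, against -5.34, -4.14 and -5.51 for EV (adjusted p = 0.0750 with the block, limma). R882H minus WT was -1.02 for it.

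The probe for chr13:112337405-112356455 was the 1 of the 4 that stood lower. Its signal was -1.76, -1.80 and -2.29 with WT and -1.13, -1.78 and -1.16 with R882H, against 1.11, 0.25 and 0.65 with EV, a difference of -2.32 ± 0.21 (SE, adjusted p = 0.0705 with the block, limma). The DNMT3A level was 5.01-fold below that of EV, all 9 arrays were above background, and the value was -2.14 with slide as the block. The probe for chr15:61984389-62102500 was higher by 1.37 ± 0.14 (SE), with 1.84 for WT and 0.90 for R882H, and that for chr12:15735906-15798506 was at least 1.47-fold higher, with no EV array above background. Both had an adjusted p of 0.0824 with the block (limma). The transcripts at these intervals are not annotated in the sources used here.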

How the data were processed

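RNA of 9 LSK samples was hybridised to 1-colour Agilent mouse arrays. The intensity values the authors deposited were background-subtracted by Agilent Feature Extraction 10.10.1.1, per the file headers, with probe positions on mm9. The authors' deposited value table holds log2 values, with a scale and centring not given in the sources used here, and served as an alternative. Each of its columns closely followed the scaled values of 1 array once each probe was centred on its median. From each array 59305 spots that were no controls (62976 spots in all) gave 55681 probes after outlier spots, 154 to 184 per array, were left out and repeated spots averaged. Log2 intensity minus the array's 75th percentile was taken. A probe was kept if well above background on all 3 EV or all 6 DNMT3A arrays, which left 29034 probes, 16117 of them with a gene symbol (12423 genes, 1 probe per gene) and 12917 without. limma 3.58.1 in R 4.3.3 was fitted to 3 groups with the replicate number as a block, with Benjamini-Hochberg adjustment over all genes and 4 residual degrees of freedom; the contrast was the mean of WT and R882H minus EV. The deposited files lack the mean signal column, so normexp (offset 50) was run on median signal in its place. The fit was tested on simulated data. The labels do not say what the replicate number marks; the block was kept as part of the comparison's definition. Named genes were, per direction, the 12 of smallest p whose groups did not overlap and whose forms agreed in sign, genes measured on 1 side alone, a panel, and the 3 of smallest p in each list; other genes were named after their values were seen. Members and lists were chosen with earlier results of these data known. Alternatives changed the block, slide, background, scaling, filter, probe choice, weights, variance prior, labels and each array in turn. Median pixel signal was 79 to 88 over a background of 24 to 29. Precision is limited by how many arrays there are. Some genes are not reported here.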

Additional observations from a re-analysis of the deposited data

Results flagged for a closer look

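Among 55 values examined over the 6 DNMT3A arrays, 3 had an array far from the other 5 by Dixon's criterion at the 95% level, which chance alone meets in about 1 of 20 such groups. Meis1, a Hox cofactor of stem cells, stood at 1.75 on WT replicate 3, against 2.96 to 3.57 on the other DNMT3A arrays and 1.66 to 3.06 on the EV arrays. Mecom, which encodes the stem cell factor EVI1, stood at -3.66 on the same array, against -1.41 to -0.47 on the other DNMT3A arrays and -1.81 to -0.64 on the EV arrays. Cys1, the gene measured with EV alone, stood at -5.97 on WT replicate 1, below background, against -4.51 to -3.76 on the other DNMT3A arrays and -3.38 to -3.14 on the EV arrays.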

How the results depend on the processing

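No gene passed adjustment under any of the 26 alternatives. The count of genes at an unadjusted p under 0.05, 1411 as reported, was 835 without the replicate block, 660 with slide as a block, 547 in the value table and 840 with EV replicate 3 and WT replicate 1 exchanged, an alternative chosen after seeing the data, as was slide as a random block. Leaving out 1 array gave 873 (EV replicate 1) to 1435 (WT replicate 3). Centring on the array median shifted the median of all genes to -0.13 and the split to 306 higher and 1496 lower. Unnamed probes gave 4 calls without the block and 0 to 1 with 1 array left out, the 1 without EV replicate 2. R882H and WT differed at an unadjusted p under 0.05 in 6 of the 24 leading genes, in 3 without the block, and in 2 to 6 with 1 array left out (2 without R882H replicate 2). The replicate block changed no other call. Same-numbered arrays correlated in their deviations from group means at 0.14, 0.27 and 0.34 (WT and EV), 0.10, 0.21 and 0.29 (R882H and EV) and 0.09, 0.16 and 0.26 (R882H and WT), but some arrays correlated more with another number, WT replicate 1 with EV replicate 2 at 0.21 and R882H replicate 1 with EV replicate 2 at 0.13, so the numbers were not shown to pair the samples. The difference in detected probes was 2.55 to 4.72 percentage points with 1 array left out. All 24 leading genes kept their sign throughout, which their choice partly fixes. Of the 27 lists 7 kept theirs: megakaryocyte, B lineage, T and NK, germline, DNA replication, ribosome biogenesis and oxidative phosphorylation genes. The causes were not tested. Dim probes near background limit the rest.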
